A study of Mus musculus with 11 samples.

Results

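Imprinted growth regulators were followed as a set of 10 among the 38561 genes in the count data: *Igf2*, *H19*, *Igf2r*, *Mest*, *Peg3*, *Dlk1*, *Meg3*, *Cdkn1c*, *Grb10* and *Plagl1*. They were listed by name, each matched to a single Ensembl identifier, and all 10 passed the filter on low counts. RNA was sequenced from facial process explants of E10.5 mouse embryos (embryonic day 10.5), taken from the branchial arch and nasal processes that form the jaws, midface and nose. The paper describes the genetic background of *Wnt9b* mutant mice as mixed, and whether strain differed between the genotypes was not tested. The study asked how WNT9b, a WNT ligand of the surface ectoderm, and RSPO2, a secreted amplifier of WNT signaling made in the mesenchyme below it, act together in the face. The 11 libraries comprised 2 wild type (wt), 3 homozygous *Rspo2* mutants (*Rspo2*KO), 3 homozygous *Wnt9b* mutants (*Wnt9b*KO) and 3 embryos homozygous for both mutations (DKO). Both alleles are constitutive nulls, so every cell of the embryo carries them. Nothing in the labels says that the libraries of a genotype came from separate embryos, so the p-values measure the spread between libraries, which may be technical.

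Imprinted genes are expressed mainly from the chromosome inherited from 1 parent, and methylation of DNA at control regions marks which copy is used. Many of them act on fetal growth, with paternally expressed genes often promoting growth and maternally expressed genes often restraining it. The paternally expressed members here are *Igf2*, a fetal growth factor, *Mest*, a membrane protein of mesoderm, *Peg3*, a zinc finger protein, *Dlk1*, a transmembrane protein related to Notch ligands, and *Plagl1*, a zinc finger transcription factor. The maternally expressed members are *H19*, a long noncoding RNA, *Igf2r*, the receptor that clears IGF2, *Meg3*, a long noncoding RNA, *Cdkn1c*, the cell cycle inhibitor p57, and *Grb10*, an adaptor that dampens insulin and IGF receptor signaling. The reads were not assigned to parental alleles, so none of the values below says which copy was used.

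Whole-library facts bear on the results as follows. Library totals ran from 11136166 to 18017344 assigned reads, and each member had between 733 and 73464 reads in every library. The libraries labelled *Wnt9b*KO 2 and DKO 3 went against their labels on *Rspo2*, at 2.86 and 15.5 CPM (counts scaled to library size, with TMM factors), where wt had 14.8 and 16.0 and the other DKO libraries 4.17 and 3.67. *Wnt9b* transcript was not reduced in the *Wnt9b*KO and DKO libraries (16.2 to 23.3 CPM against 10.8 to 16.7 in wt and *Rspo2*KO), and where the counted reads fall relative to the mutated sequence was not tested. *Xist* was between 678.9 and 1468 CPM in the wt and DKO libraries and at most 1.94 CPM in the single mutants, so the comparisons of either single mutant with wt or with DKO, and the interaction of both mutations, cannot be told apart from sex. Reads of small nuclear RNA genes summed to between 351.5 and 419.2 CPM in wt and *Rspo2*KO and to between 70.1 and 82.6 CPM in *Wnt9b*KO and DKO, so the *Wnt9b* genotype cannot be told apart from that difference in the libraries. All 10 listed markers of facial mesenchyme were detected, and their summed level lay between 683.3 and 986 CPM in wt and *Rspo2*KO and between 630.7 and 1132 CPM in *Wnt9b*KO and DKO.

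The sequences upstream of the 3 members that were higher in *Wnt9b*KO than in wt, *Meg3*, *Dlk1* and *Plagl1*, are shown to let their CG dinucleotides and WNT-related motifs be seen. Each is the 250 bases before an annotated start in RefSeq (GRCm38.p6), read 5′ to 3′ on the gene's strand, with every CG in capitals, since CG is where methylation marks imprints. The more upstream of the 2 *Meg3* windows is chr12:109540746-109540995 (plus strand), the *Dlk1* window chr12:109452573-109452822 (plus strand) and the *Plagl1* window chr10:13090582-13090831 (plus strand).
Meg3 upstream: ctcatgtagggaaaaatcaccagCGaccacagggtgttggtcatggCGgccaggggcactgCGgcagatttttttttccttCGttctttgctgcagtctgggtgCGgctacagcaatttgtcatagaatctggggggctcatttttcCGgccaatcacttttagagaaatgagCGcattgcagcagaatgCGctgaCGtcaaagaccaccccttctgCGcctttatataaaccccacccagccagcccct
Dlk1 upstream: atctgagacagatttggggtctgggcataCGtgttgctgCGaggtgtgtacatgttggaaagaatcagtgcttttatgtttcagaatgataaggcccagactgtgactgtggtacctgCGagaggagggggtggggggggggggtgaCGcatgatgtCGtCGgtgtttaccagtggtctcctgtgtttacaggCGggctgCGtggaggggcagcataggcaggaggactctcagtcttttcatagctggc
Plagl1 upstream: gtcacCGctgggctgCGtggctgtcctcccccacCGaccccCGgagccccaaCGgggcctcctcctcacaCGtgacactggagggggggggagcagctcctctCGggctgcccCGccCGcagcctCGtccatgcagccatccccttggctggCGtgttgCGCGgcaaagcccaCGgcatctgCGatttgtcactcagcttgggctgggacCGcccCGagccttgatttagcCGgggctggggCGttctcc
The *Meg3* window shown held 10 CG, the *Dlk1* window 8 and the *Plagl1* window 19, against a median of 6 over all 32851 windows of the same length. Both strands were searched for CTTTGA, the core bound by TCF/LEF factors downstream of β-catenin, and for TGACGTCA, the cyclic AMP response element. That *Meg3* window held both, CTTTGA on the minus strand with its leftmost base 52 bases before the start and TGACGTCA from 57 bases before it, and the 2 matches overlap. CTTTGA was present in 13.8% of all windows and TGACGTCA in 1.55%. Neither motif was found in the *Dlk1* or *Plagl1* window, nor in the second *Meg3* window (chr12:109545148-109545397, plus strand), which held 0 CG. Among the other members, the most upstream of the 4 *Igf2* windows held CTTTGA and the *Peg3* window held TGACGTCA. RefSeq windows were matched for 8 of the 10 members, without *H19* and *Cdkn1c*. A match of letters is a description and not a bound site.

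*H19* and *Meg3* also contain miRNA precursors within their exons, so reads on those stretches overlap 2 annotated genes. *Mir675*, inside *H19*, and *Mir770*, inside *Meg3*, were at 0 counts in all 11 libraries. The mature miRNAs are shown for this overlap, with their seeds (bases 2 to 8) in capitals. Their levels were not measured by these libraries.
miR-675-5p (H19, chr7:142577112-142577133, minus strand): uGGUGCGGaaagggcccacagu
miR-675-3p (H19, chr7:142577078-142577099, minus strand): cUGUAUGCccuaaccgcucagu
miR-770-5p (Meg3, chr12:109563710-109563731, plus strand): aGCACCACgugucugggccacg
miR-770-3p (Meg3, chr12:109563744-109563765, plus strand): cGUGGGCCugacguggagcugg
The 4 seeds differ from each other.

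The members spanned a wide range of levels in the face. Per kilobase of exon (RPKM, CPM divided by the summed exon length), the wt mean was highest for *H19* at 1308, which ranked 25 of 17020 genes. It was followed by *Mest* at 242.6, *Grb10* at 199.8, *Cdkn1c* at 187.1 and *Igf2* at 123.3. *Peg3* (60.0), *Igf2r* (25.6), *Plagl1* (13.4) and *Dlk1* (12.7) came next, and *Meg3* was lowest at 3.23, at rank 8835. Over all 11 libraries the RPKM ranges of *Mest* and *Grb10*, *Grb10* and *Cdkn1c*, *Cdkn1c* and *Igf2*, and *Plagl1* and *Dlk1* overlapped, and those of the other neighbours did not. Compared within each library, *Mest* was above *Grb10* and *Plagl1* above *Dlk1* in 11 of 11, while *Grb10* was above *Cdkn1c* and *Cdkn1c* above *Igf2* in 8 of 11. The *Meg3* value is divided by 18089 bp of exon from all annotated isoforms, so its rank depends on that length.

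**Figure D1:**
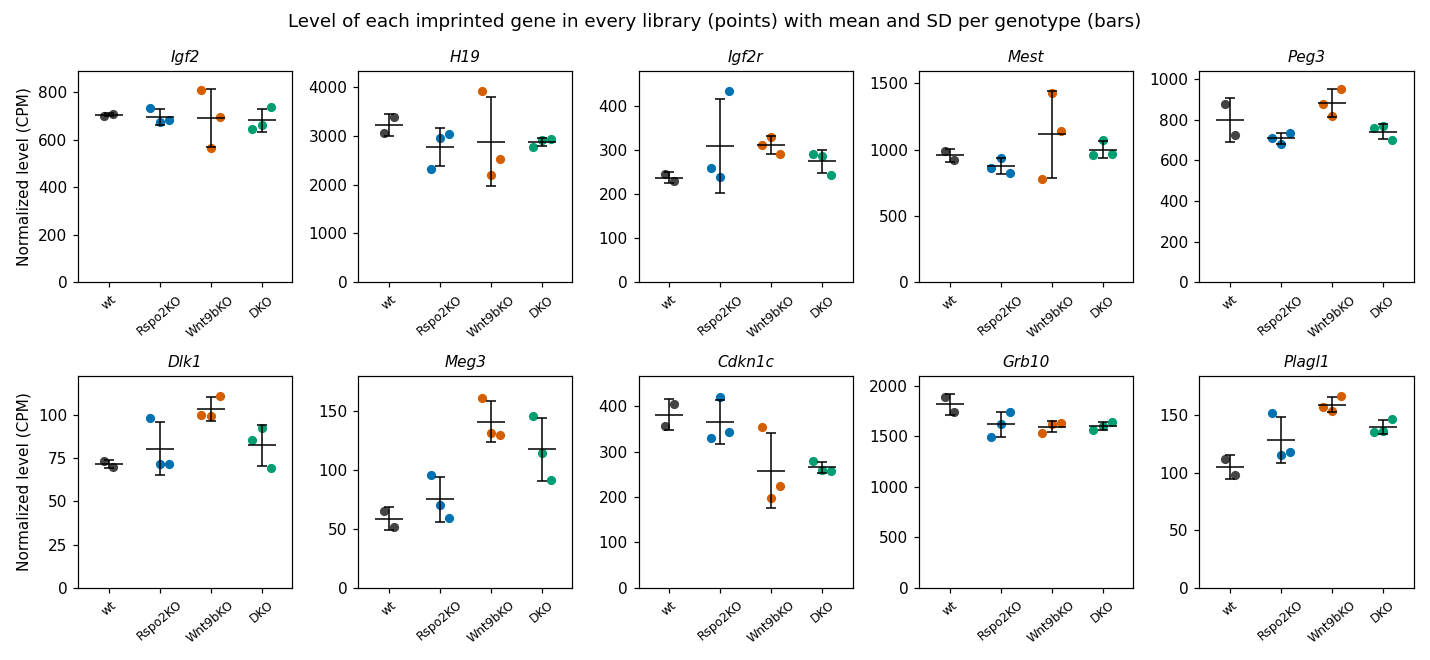
Each panel plots 1 imprinted gene, with the normalized level in CPM on a linear axis from 0 and the 4 genotypes on the horizontal axis. Points are libraries, and the bars give the mean and SD. *Meg3* and *Plagl1* sit higher in *Wnt9b*KO and DKO than in wt, *Cdkn1c* sits lower apart from 1 *Wnt9b*KO library at 353.9 CPM, and *Igf2* shows no such shift from its wt levels of 701.3 and 710.1 CPM.

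In *Wnt9b*KO explants, 3 members were higher than in wt and 1 was lower. *Meg3* rose the most, by 1.27 ± 0.21 on the log2 scale (SE), a 2.42-fold difference. *Plagl1* rose 1.52-fold and *Dlk1* 1.45-fold, and *Cdkn1c* fell to 0.677 of its wt level. The call of 4 of 10 members (adjusted p below 0.05) compares with 32.8% of all 17317 tested genes called in this comparison, so the members' share is near the background. The median log2 fold change was 0.18 over the members and 0.01 over all tested genes.

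*Meg3* (chr12:109541001-109571726) is transcribed from the maternal copy of the *Dlk1* to *Dio3* domain. Its level was 65.4 and 51.6 CPM in wt, and 96.1, 70.3 and 59.1 CPM in *Rspo2*KO. It was 161.1, 132.0 and 130.1 CPM in *Wnt9b*KO, and 146.2, 114.5 and 92.0 CPM in DKO. Every *Wnt9b*KO and DKO library was above both wt libraries, and the lowest of them, DKO 3, was below *Rspo2*KO 1. The adjusted p from edgeR's quasi-likelihood test was 0.000589 for *Wnt9b*KO and 0.00322 for DKO against wt, with the DKO difference at 1.01 ± 0.21. The DKO call of *Meg3* is lost without wt 2, at 0.84 (edgeR adjusted p = 0.0552). With a trend in gene length and GC content removed from each library, *Meg3* was higher by 0.82 in *Wnt9b*KO (edgeR adjusted p = 0.00355) and by 0.61 in DKO (edgeR adjusted p = 0.0214). *Meg3* shares 1228 bp of exon with the opposite-strand gene *Gm26906*, and the strand setting of the counting was not stated.

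*Plagl1* (chr10:13060504-13131694) was at 112.0 and 97.5 CPM in wt and at 151.7, 115.7 and 118.0 CPM in *Rspo2*KO. It was at 157.1, 153.5 and 166.7 CPM in *Wnt9b*KO and at 135.4, 136.4 and 146.2 CPM in DKO. All 6 libraries with the *Wnt9b* mutation exceeded both wt libraries, while *Rspo2*KO 1 exceeded the 3 DKO libraries. The log2 difference from wt was 0.60 ± 0.12 in *Wnt9b*KO (edgeR adjusted p = 0.00226) and 0.41 ± 0.12 in DKO (edgeR adjusted p = 0.0235). The DKO call of *Plagl1* is lost without wt 1 (0.51), wt 2 (0.31) or DKO 3 (0.37), and with both the libraries labelled *Wnt9b*KO 2 and DKO 3 left out it is at 0.37.

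*Dlk1* (chr12:109452823-109463336), expressed from the paternal copy of the same domain as *Meg3*, was at 73.3 and 70.0 CPM in wt and at 98.5, 71.6 and 71.7 CPM in *Rspo2*KO. It was at 99.3 and 111.4 CPM in *Wnt9b*KO 2 and *Wnt9b*KO 3, with *Wnt9b*KO 1 between them, and at 85.5, 92.8 and 69.5 CPM in DKO. The *Wnt9b*KO libraries were the 3 highest of the 11, and the DKO libraries overlapped wt. The log2 difference from wt was 0.53 ± 0.15 in *Wnt9b*KO (edgeR adjusted p = 0.015) and 0.20 ± 0.15 in DKO (edgeR adjusted p = 0.337). The *Wnt9b*KO call is lost without wt 1, at 0.56 (edgeR adjusted p = 0.0795), and without wt 2, at 0.49 (edgeR adjusted p = 0.106).

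*Cdkn1c* (chr7:143458339-143461050), the member that holds cells out of the cell cycle, was at 357.1 and 405.9 CPM in wt and at 331.0, 420.2 and 343.1 CPM in *Rspo2*KO. It was at 353.9, 197.8 and 223.6 CPM in *Wnt9b*KO and at 280.0, 260.7 and 257.5 CPM in DKO. The 3 DKO and 2 of the *Wnt9b*KO libraries lay below every wt and *Rspo2*KO library, and *Wnt9b*KO 1 lay among them. The log2 difference from wt was -0.56 ± 0.19 in *Wnt9b*KO (edgeR adjusted p = 0.0358) and -0.52 ± 0.19 in DKO (edgeR adjusted p = 0.0561). The *Wnt9b*KO call is lost without wt 1 (-0.66), wt 2 (-0.47), *Wnt9b*KO 2 (-0.38) or *Wnt9b*KO 3 (-0.44), and without the libraries labelled *Wnt9b*KO 2 and DKO 3 (-0.40). It is also lost when only the groups compared are fitted (-0.57, edgeR adjusted p = 0.0817), with the replicate number as a block (-0.53, edgeR adjusted p = 0.0543) and with the trend in gene length and GC content removed (-0.36, edgeR adjusted p = 0.0844). In DKO *Cdkn1c* is called without *Wnt9b*KO 1 (-0.52) or *Wnt9b*KO 2 (-0.49), with DESeq2 (-0.53, adjusted p = 0.0256), with no filter on low counts (edgeR adjusted p = 0.00248) and when only the groups compared are fitted (edgeR adjusted p = 0.00272). The *Wnt9b*KO libraries also differed on markers. Facial mesenchyme markers summed to 1132 CPM in *Wnt9b*KO 1, 630.7 in *Wnt9b*KO 2 and 865.2 in *Wnt9b*KO 3. Forebrain and eye markers summed to 88.6, 192.2 and 128.2 CPM in the same order. The part of these marker differences in the result was not tested.

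The other 6 members were not called against wt in any mutant. The levels of *Igf2* (chr7:142650766-142666816) averaged 705.7 ± 6.24 CPM in wt (SD, n = 2), 697.3 ± 33.1 in *Rspo2*KO, 690.3 ± 122.3 in *Wnt9b*KO and 681.6 ± 48.5 in DKO (n = 3 each), and its log2 differences from wt were between -0.05 and -0.02. *H19* (chr7:142575529-142578143), its neighbour, averaged 3218 ± 221.5 CPM in wt and 2876 ± 907.1 in *Wnt9b*KO, where *Wnt9b*KO 1 was at 3908 and the others at 2203 and 2517 CPM. *H19* and *Mest* were called in *Wnt9b*KO against wt only when *Wnt9b*KO 1 was left out, at log2 differences of -0.45 and 0.43.

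*Mest* (chr6:30723547-30748465) was at 777.6, 1429.9 and 1142 CPM in *Wnt9b*KO and between 821.7 and 1072 CPM in the other 8 libraries. *Mest* shares 912 bp of exon with the opposite-strand gene *Copg2*, and the strand setting of the counting was not stated. *Peg3* (chr7:6703892-6730431) was between 680.8 and 949.4 CPM in all libraries, with log2 differences from wt of 0.14 ± 0.12 in *Wnt9b*KO and -0.11 ± 0.12 in DKO. *Grb10* (chr11:11930508-12038683) was at 1888 and 1743 CPM in wt and between 1490 and 1741 CPM in the mutants, with log2 differences of -0.19 ± 0.12 in *Wnt9b*KO and -0.18 ± 0.12 in DKO.

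*Igf2r* (chr17:12682406-12769664) was at 247.1 and 229.7 CPM in wt, at 312.2, 331.5 and 291.5 CPM in *Wnt9b*KO and at 292.8, 288.4 and 244.8 CPM in DKO. In *Rspo2*KO it was at 259.2, 239.6 and 434 CPM, so the highest value of all 11 libraries was a single *Rspo2*KO library. All 3 *Wnt9b*KO libraries were above both wt libraries, with a log2 difference of 0.39 ± 0.20 that was not called (edgeR adjusted p = 0.147). The same difference was called without *Rspo2*KO 3 (edgeR adjusted p = 0.0246), with no filter on low counts (edgeR adjusted p = 0.0296) and when only the groups compared were fitted (edgeR adjusted p = 0.0394), and it was 0.14 with the trend in gene length and GC content removed. *Airn*, the paternal noncoding RNA that runs across *Igf2r* on the other strand, was at 3.03 CPM in *Rspo2*KO 3 and between 5.54 and 11.8 CPM elsewhere. That *Airn* value did not stand apart among the 5 wt and *Rspo2*KO libraries (gap to the nearest library over the range 0.566, cutoff 0.71).

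**Figure D2:**
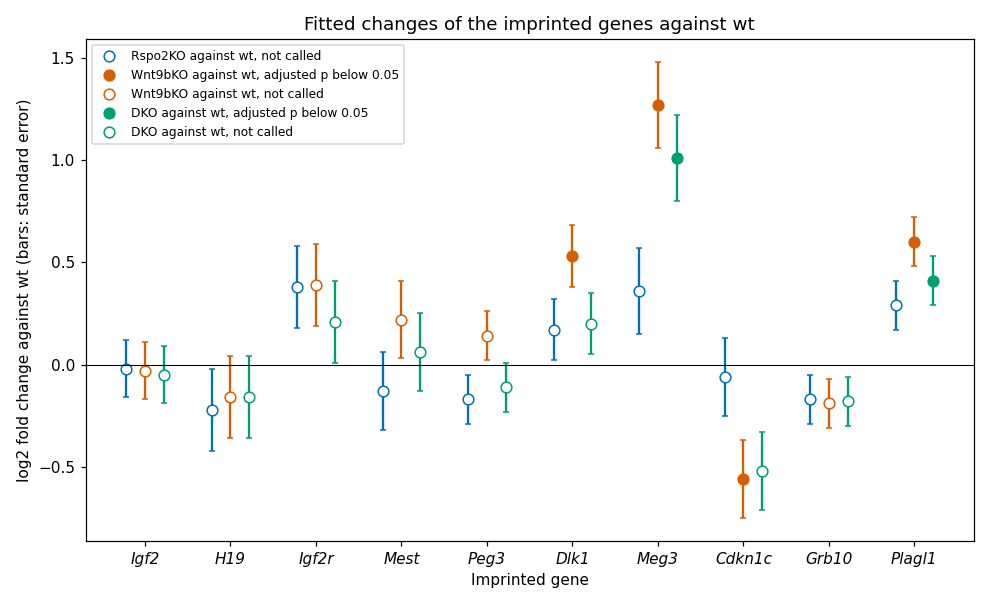
The log2 fold change of each imprinted gene against wt is plotted for *Rspo2*KO, *Wnt9b*KO and DKO, with bars for the standard error. Filled points have an adjusted p below 0.05: *Meg3*, *Plagl1*, *Dlk1* and *Cdkn1c* in *Wnt9b*KO and *Meg3* and *Plagl1* in DKO.

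In DKO explants 2 of 10 members were called against wt, *Meg3* and *Plagl1*, both higher, where 27.5% of all tested genes were called. The count was 0 without wt 2, 1 without wt 1 or DKO 3, and 1 without the libraries labelled *Wnt9b*KO 2 and DKO 3. It was 3, with *Cdkn1c* lower, in DESeq2, with no filter on low counts and when only the groups compared were fitted. In *Rspo2*KO explants edgeR called 0 of 10 members, where 0.0346% of all tested genes were called. At an unadjusted p below 0.05 the count was 1 (*Plagl1*, log2 difference 0.29 ± 0.12), and DESeq2 also called 0. The share of all tested genes at that unadjusted threshold alone was not counted. These 3 comparisons share the 2 wt libraries. The study's rule (p below 0.05 and more than 1.5-fold), which it ran with DESeq2, was applied here to the unadjusted p of the edgeR fit. Then 2 members passed in *Wnt9b*KO, 0 in *Rspo2*KO and 1 in DKO, against 24.8%, 4.68% and 20.4% of all tested genes. These counts are therefore not those of the study's own gene lists.

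Between the mutants, DKO against *Wnt9b*KO gave 0 called members, where 0.121% of all tested genes were called. The unadjusted p was below 0.05 for 2 members, *Dlk1* (log2 difference -0.33 ± 0.13) and *Peg3* (-0.25 ± 0.11), and DESeq2 called 0. How many of all tested genes passed that unadjusted threshold was not counted, so these 2 cannot be read as an excess or as the lack of one. DKO against *Rspo2*KO gave 1, *Meg3*, higher by 0.65 ± 0.18 (edgeR adjusted p = 0.024), where 18.2% were called. That call is lost without *Rspo2*KO 2 (0.61), *Rspo2*KO 3 (0.50), DKO 1 (0.46) or DKO 2 (0.67), and *Cdkn1c* is called as well without *Wnt9b*KO 1 (-0.46).

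All 11 libraries were then split by the *Wnt9b* label, 6 mutant (*Wnt9b*KO and DKO) against 5 others (wt and *Rspo2*KO). The same 4 members were called as in *Wnt9b*KO against wt, 4 of 10 where 42.1% of all tested genes were called. *Meg3* was higher by 0.96 ± 0.14 (edgeR adjusted p = 9.64e-05), *Plagl1* by 0.36 ± 0.08 (edgeR adjusted p = 0.00287) and *Dlk1* by 0.28 ± 0.10 (edgeR adjusted p = 0.0336). *Cdkn1c* was lower, at -0.51 ± 0.13 (edgeR adjusted p = 0.00561). *Meg3*, *Plagl1* and *Cdkn1c* were called in all 20 alternatives run for this split, and *Dlk1* in 13. The *Dlk1* call is lost without any 1 of wt 1, wt 2, *Rspo2*KO 2, *Rspo2*KO 3, *Wnt9b*KO 3, DKO 1 and DKO 2, at differences between 0.24 and 0.29. Without *Rspo2*KO 3 *Igf2r* is called higher (0.26), and without *Wnt9b*KO 1 *Mest* is (0.31). With the study's rule the count was 1 (*Meg3*), against 18.9% of all tested genes.

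Split by the *Rspo2* label, edgeR called 0 of 10 members where 0.0635% of all tested genes were called, with 1 member (*Peg3*, -0.21 ± 0.08) at an unadjusted p below 0.05. The interaction of both labels also gave 0 of 10, where 0.0635% of all tested genes were called. At an unadjusted p below 0.05 the interaction counted 4 members, *Plagl1* (-0.49 ± 0.16), *Dlk1* (-0.50 ± 0.20), *Meg3* (-0.63 ± 0.28) and *Igf2r* (-0.56 ± 0.26). The share of all tested genes at that unadjusted threshold was not counted for the interaction or the *Rspo2* split. Neither count can therefore be read as an excess or as the lack of one. DESeq2 called 0 in both. All calls on members came from comparisons that cross the difference in small nuclear RNA reads, where 18.2% to 42.1% of all tested genes were called. In the comparisons that do not cross it, at most 0.121% of all tested genes were called. The lack of called members there is near that share, and its cause was not tested.

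The split was also refitted with a trend in gene length and GC content removed from each library. *Meg3* was still higher (0.67 ± 0.12), as were *Plagl1* (0.26 ± 0.08) and *Dlk1* (0.24 ± 0.09), and *Cdkn1c* was still lower (-0.35 ± 0.10). *Grb10* was then called lower at -0.25 ± 0.08 (edgeR adjusted p = 0.0224), from -0.10 ± 0.08 before. *Peg3* moved from 0.10 to -0.12 and *Igf2r* from 0.11 to -0.07, without a call. Against wt, the correction ended the call of *Cdkn1c* in *Wnt9b*KO (edgeR adjusted p = 0.0844) and of *Plagl1* in DKO (edgeR adjusted p = 0.0891), and brought calls of *Grb10* in both (-0.40 and -0.37) and of *Peg3* in DKO (-0.41).

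**Figure D3:**
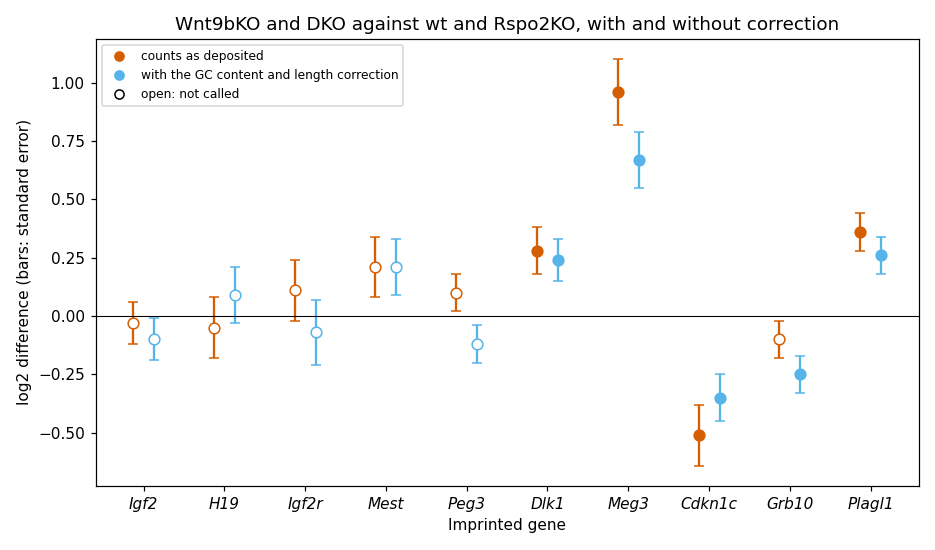
The log2 difference of *Wnt9b*KO and DKO from wt and *Rspo2*KO is plotted per imprinted gene, from the counts as deposited and with the correction for GC content and length. Bars are standard errors and open points were not called. *Meg3* shrinks from 0.96 to 0.67, *Peg3* and *Igf2r* cross 0, and *Grb10* becomes called.

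The balance of paired imprinted genes was followed as the ratio of their read counts in each library, which does not depend on library scaling. The ratio of *Dlk1* to *Meg3*, the paternal and maternal products of 1 domain, was 1.12 and 1.36 in wt and 1.03, 1.02 and 1.21 in *Rspo2*KO. It was 0.621, 0.753 and 0.856 in *Wnt9b*KO and 0.585, 0.81 and 0.755 in DKO. All 6 *Wnt9b*KO and DKO libraries were below all 5 others. In the same split 42.1% of all tested genes were called. How often the ratio of other gene pairs separates these libraries was not counted, so the separation is not shown to be particular to this domain. The log2 difference was -0.66, a 1.58-fold lower ratio (two-sided exact permutation test, p = 0.00216, the smallest that 6 against 5 libraries can give, and 0.00649 adjusted over the 3 ratios). It was -0.43 with levels corrected for GC content and length (exact permutation p = 0.00866).

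The ratio of *Igf2* to *H19*, which are driven by a shared enhancer on opposite parental copies, was between 0.21 and 0.317 in wt and *Rspo2*KO and between 0.207 and 0.277 in *Wnt9b*KO and DKO. The log2 difference was 0.01 (two-sided exact permutation test, p = 0.955), with SDs of 0.23 and 0.15. *H19* and *Igf2* were both highest in *Wnt9b*KO 1 and both lowest in *Wnt9b*KO 2. The ratio of *Igf2* to *Igf2r*, the ligand to its clearance receptor, was between 1.57 and 3.09 in wt and *Rspo2*KO and between 1.7 and 3.01 in *Wnt9b*KO and DKO (log2 difference -0.13, two-sided exact permutation p = 0.504). For neither ratio of counts did the sets of libraries separate. With levels corrected for GC content and length, *Igf2* to *H19* was at -0.20 (exact permutation p = 0.0541). *Igf2* to *Igf2r* was then at -0.05 (exact permutation p = 0.803), and from counts without *Rspo2*KO 3 at -0.31 (exact permutation p = 0.0524).

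**Figure D4:**
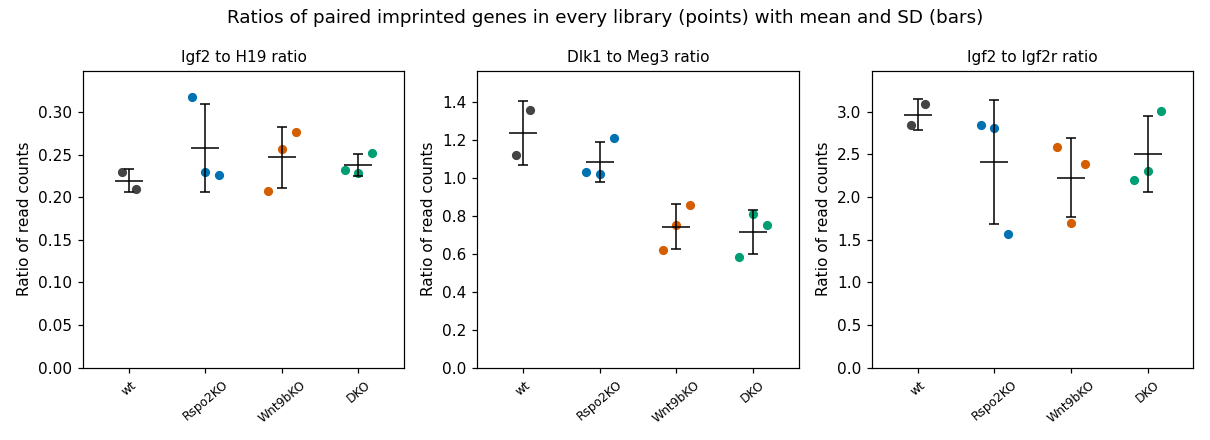
Each panel plots a ratio of read counts per library on a linear axis from 0, by genotype, with mean and SD. For *Dlk1* to *Meg3* the *Wnt9b*KO and DKO libraries lie at 0.856 or less and the wt and *Rspo2*KO libraries at 1.02 or more. The other ratios overlap.

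The neighbours within each imprinted domain did not all move with the member. In the *Dlk1* to *Dio3* domain, *Rtl1*, a paternally expressed retrotransposon-derived gene, was between 39.8 and 52.7 CPM in *Wnt9b*KO and DKO and between 26.9 and 37.8 CPM in wt and *Rspo2*KO, without overlap (log2 difference 0.57 ± 0.09, edgeR adjusted p = 0.000143). *Rian* and *Mirg*, maternal noncoding RNAs downstream of *Meg3* that host snoRNAs and miRNAs, were not called, at 0.06 ± 0.09 and -0.08 ± 0.09. *Dio3*, which inactivates thyroid hormone, was at 1.32 to 3.12 CPM (-0.44 ± 0.20, not called).

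Next to *Peg3*, the maternally expressed zinc finger gene *Zim1* was at 5.89 and 6.58 CPM in wt, 7.82 to 12.2 CPM in *Rspo2*KO and 10.8 to 14.4 CPM in *Wnt9b*KO and DKO (log2 difference 0.64 ± 0.13, edgeR adjusted p = 0.00108). *Usp29* beside it was not called (-0.17 ± 0.19). *Igf2os*, antisense to *Igf2* with 98 bp of shared exon, was not called (-0.07 ± 0.13), nor were *Copg2* (-0.07 ± 0.08) and *Airn* (0.21 ± 0.23). *Phlda2* and *Slc22a18*, maternally expressed neighbours of *Cdkn1c*, stayed at or below 0.446 and 0.622 CPM and were not tested, and *Ins2* had 0 counts.

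**Figure D5:**
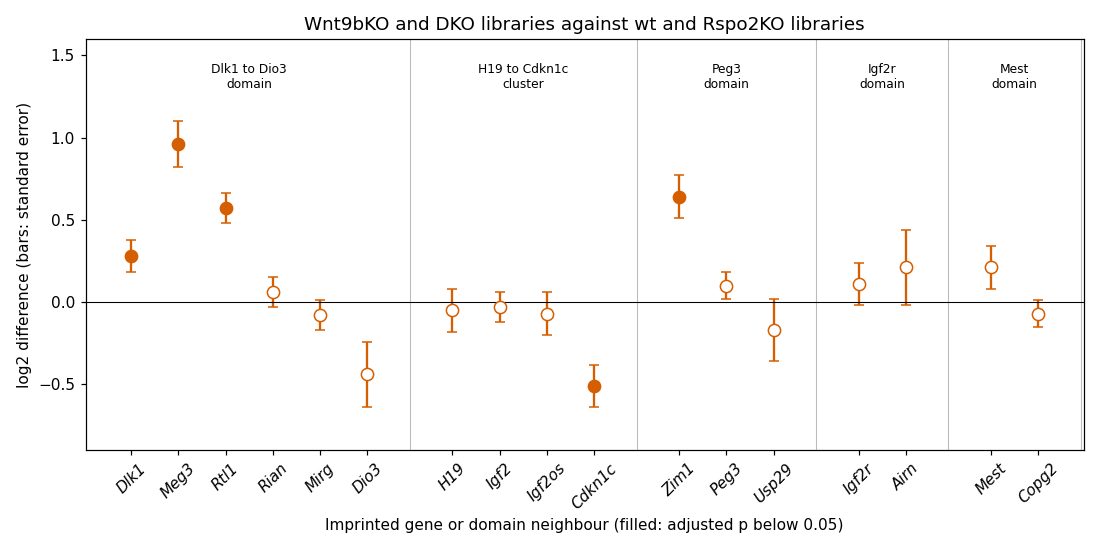
The log2 difference of *Wnt9b*KO and DKO from wt and *Rspo2*KO is plotted for members and neighbours, grouped by domain, with standard errors. Filled points were called: *Dlk1*, *Meg3* and *Rtl1* in 1 domain, *Cdkn1c* and *Zim1* in others, while *Rian*, *Mirg* and both *H19* and *Igf2* lie near 0.

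The rest of the listed imprinted genes showed a mixed picture in the same split. Of 20 tested paternally expressed genes, 3 were called higher and 1 lower, with *Sfmbt2* higher by 0.61 ± 0.13 and *Mcts2* lower at -0.34 ± 0.13. Of 13 tested maternally expressed genes, 4 were called higher and 1 lower, with *Klf14* higher by 0.93 ± 0.23 and *Commd1* lower at -0.46 ± 0.10. The called counts, 4 of 20 and 5 of 13, compare with 42.1% of all tested genes. With the correction for GC content and length, 4 paternally expressed genes were higher and 0 lower, and 2 maternally expressed genes were higher and 3 lower. In the fit without that correction the medians were 0.05 and 0.06, against 0.02 over all tested genes.

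A list of genes that act on DNA methylation or at imprints was also counted, including the oxidases *Tet1*, *Tet2* and *Tet3*. Of 13 tested, 8 were higher and 0 lower in the *Wnt9b* split, with a median of 0.25. In that split 42.1% of all tested genes were called in either direction. *Zfp445*, a zinc finger protein that binds imprint control regions, was higher by 0.52 ± 0.08, *Dnmt1*, the maintenance DNA methyltransferase, by 0.50 ± 0.08, *Tet3*, a 5-methylcytosine oxidase, by 0.79 ± 0.14 and *Ctcf*, the insulator protein, by 0.34 ± 0.07. *Dnmt1* was between 393.9 and 514.7 CPM in *Wnt9b*KO and DKO and between 290.7 and 352.1 CPM in the others, without overlap. With the correction for GC content and length 6 were higher and 2 lower, and without the libraries labelled *Wnt9b*KO 2 and DKO 3 the count was 5 higher.

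In the IGF pathway, through which several members act, 9 of 23 tested genes were higher and 2 lower in the split, where 42.1% of all tested genes were called, with a median of 0.27. *Igfbp5*, an IGF binding protein of mesenchyme, was at 151.9 and 162.9 CPM in wt, 213.3 to 358.6 CPM in *Rspo2*KO and 436.3 to 512.1 CPM in *Wnt9b*KO and DKO (1.22 ± 0.13). *Irs2* and *Irs1*, substrates of the IGF and insulin receptors, were higher by 0.64 ± 0.11 and 0.45 ± 0.09, and *Grb2*, an adaptor toward RAS, was lower at -0.59 ± 0.09. In *Wnt9b*KO against wt 12 of 23 were called where 32.8% of all tested genes were, which became 6 with the correction for GC content and length and 7 without the libraries labelled *Wnt9b*KO 2 and DKO 3. In *Rspo2*KO against wt edgeR called 0 of the 23, with 5 at an unadjusted p below 0.05. The share of all tested genes at that unadjusted threshold was not counted, so the 5 cannot be read as an excess or as the lack of one.

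Of 4 tested CDK inhibitors other than *Cdkn1c*, 2 were lower in the split, where 42.1% of all tested genes were called, and 1 with the correction for GC content and length. *Cdkn1a*, the p21 inhibitor induced by p53, was at 11.1 and 9.78 CPM in wt, 6.31 to 7.58 CPM in *Rspo2*KO and 1.99 to 4.0 CPM in *Wnt9b*KO and DKO (-1.60 ± 0.17). *Cdkn2d* was lower at -0.41 ± 0.09, and *Cdkn1b* (0.14 ± 0.09) and *Cdkn2c* (0.12 ± 0.17) were not called.

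Markers of other tissues were counted in the same split, where 42.1% of all tested genes were called. All 5 erythroid markers were lower, with sums of 1665 to 2737 CPM in *Wnt9b*KO and DKO against 3872 to 5652 CPM in wt and *Rspo2*KO. Of 5 forebrain and eye markers 4 were higher, with sums of 88.6 to 192.2 CPM against 75.5 to 99.1 CPM. Of 4 tested muscle and heart markers 2 were lower, with a sum of 50.8 CPM in wt 1 and at most 14.0 CPM elsewhere. Of 5 endothelial markers 3 were higher and 1 lower, with sums of 168.4 to 189.9 CPM against 145.7 to 191.3 CPM. Of 5 neuronal markers 1 was lower, with sums of 262.9 to 504.3 CPM against 438.7 to 589.4 CPM. Of 7 surface ectoderm markers 2 were higher and 1 lower (201.1 to 241.5 CPM against 204.2 to 247.4 CPM), and of 10 facial mesenchyme markers 1 was higher and 1 lower. Yolk sac and trophoblast markers, tissues rich in imprinted transcripts, summed to at most 20.8 CPM, 1 of the 2 tested being lower, with *Tpbpa* and *Rhox5* at 0 in all libraries. The part of these tissues in the members' differences was not tested, and in bulk samples fewer cells of a type and less RNA per cell cannot be told apart.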

How the data were processed

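RNA of E10.5 facial process explants was sequenced in 11 libraries. The authors trimmed adapters with Cutadapt, aligned single-end reads to GRCm38 with STAR and assigned them to Ensembl genes with HTSeq-Count. The deposited values are raw counts per gene, and the strand setting of the counting is not given in the sources used here. Gene names, positions and exon lengths came from GENCODE M21, which held 36639 of the 38561 genes. Counts were fitted with edgeR 4.0.16 (quasi-likelihood, TMM scaling, filterByExpr, all libraries, 1 mean per genotype), with Benjamini-Hochberg adjustment over all 17317 tested genes and calls at an adjusted p below 0.05. Ratios of counts were compared with exact permutation tests over libraries. Members were named in every comparison, and from other lists at most the 4 genes of smallest p plus domain neighbours. The members, lists and motifs were chosen with earlier results of these data known. Of 154 listed genes, 148 were matched. Alternatives were DESeq2 1.42.0, other scaling (RLE, upper quartile), filters (none, or at least 10 reads per library) and fits restricted to the compared groups. Also run were a replicate block, a GC content and length offset (loess span 0.3), the study's rule on the edgeR fit (1.5-fold) and leaving libraries out. The fit was also run on simulated counts with 200 genes changed in DKO. Those counts lack the small nuclear RNA, GC content and length differences of these libraries, so that run does not test the calls against them. Precision is limited by counting and by 2 or 3 libraries per genotype.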

Additional observations from a re-analysis of the deposited data

Results flagged for a closer look

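In 28 checks of a single library against the others of its set (the 5 wt and *Rspo2*KO libraries, or the 6 *Wnt9b*KO and DKO libraries), 5 values stood apart by the gap to the nearest library relative to the range, all among the 5, and chance flags about 1 in 20 such checks. *Igf2r* was at 434 CPM in *Rspo2*KO 3 against 229.7 to 259.2 CPM in the other 4, and the ratio of *Igf2* to *Igf2r* was 1.57 there against 2.81 to 3.09. *Dlk1* was at 98.5 CPM in *Rspo2*KO 1 against 70.0 to 73.3 CPM, and the ratio of *Igf2* to *H19* was 0.317 there against 0.21 to 0.229. *Peg3* was at 874.8 CPM in wt 1 against 680.8 to 733.8 CPM. The cause of these values was not tested.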

How the results depend on the processing

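Of 1650 values of members under alternatives, 1574 kept their side of the threshold without a reversal larger than the standard error, 29 lost and 24 gained a call and 23 reversed; 72 smaller sign changes of uncalled values were not counted as reversed. Leaving out 1 library, the called members ranged from 2 to 6 (*Wnt9b*KO against wt), 0 to 3 (DKO against wt), 0 to 2 (DKO against *Rspo2*KO) and 3 to 5 (*Wnt9b* split), and were 0 in the other comparisons. The study's rule gave 2, 1, 1 and 1 in these 4, and 1 member was called in DKO against wt without the libraries labelled *Wnt9b*KO 2 and DKO 3. DESeq2, no filter and only the groups compared gave 2 in DKO against *Rspo2*KO.

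The *Igf2* to *H19* difference of 0.01 was -0.20 with GC content and length corrected, -0.03 without the libraries labelled *Wnt9b*KO 2 and DKO 3, and -0.04 to 0.11 without 1 library; that of *Dlk1* to *Meg3* was -0.71 to -0.59 and that of *Igf2* to *Igf2r* -0.31 to -0.04.

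Same-numbered libraries of different genotypes correlated in their deviations at -0.105 to 0.236 (median 0.066, 3 of 15 above 0.1), against -0.186 to 0.105 (median -0.024) for other numbers, and 8 of 11 libraries correlated best with their own number. The main fit did not take the numbers as pairs, so any structure shared by number is not modelled in it. A replicate block was run as an alternative. The replicate block ended the call of *Cdkn1c* in *Wnt9b*KO against wt (-0.53, edgeR adjusted p = 0.0543), leaving 3 members called there and 2 in DKO against wt.

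Reversed uncalled values were as follows. With the GC and length offset *Peg3* was at -0.18 (*Wnt9b*KO against wt), -0.05 (DKO against *Rspo2*KO), -0.12 (*Wnt9b* split) and 0.13 (interaction), *H19* at 0.09 and *Igf2r* at -0.07 (*Wnt9b* split). With that offset and the replicate block *Peg3* was at -0.20, -0.05, -0.12 and 0.15 in the same comparisons and *Igf2r* at -0.06 (DKO against wt) and -0.09 (*Wnt9b* split). Leaving out 1 library, sign changes came in these ranges: *Igf2* -0.16 to 0.12 (*Wnt9b*KO against wt) and -0.14 to 0.11 (DKO against *Wnt9b*KO), *H19* -0.16 to 0.28 (DKO against *Wnt9b*KO) and -0.19 to 0.03 (*Rspo2* split), *Mest* -0.36 to 0.06 (DKO against *Wnt9b*KO), *Igf2r* -0.32 to 0.14 (DKO against *Rspo2*KO) and -0.06 to 0.19 (*Rspo2* split), *Peg3* -0.24 to 0.03 (DKO against wt) and *Cdkn1c* -0.09 to 0.14 (*Rspo2* split). Without the libraries labelled *Wnt9b*KO 2 and DKO 3, *Mest* was at 0.08 (DKO against *Wnt9b*KO) and 0.22 (interaction). The cause of these changes was not tested.

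Each member had at least 733 reads in every library, and each genotype had 2 or 3 libraries.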
